A study of Mus musculus with 12 samples.

Results

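The 47 genes described here encode cytosolic ribosomal proteins, the protein part of the ribosomes that translate messenger RNA outside the mitochondria. They were taken by name, as every gene whose symbol, on a probe set that names 1 gene, is Rpl, Rplp or Rps followed by a number, with an a, x or l suffix allowed. The Rps6k kinases and the pseudogenes were left out. A probe set is a group of short oligonucleotides on the array that reads 1 transcript. The rule took 47 of the 18194 genes with such a probe set, and 102 of the 45101 probe sets. Of the 47 members, 24 belong to the large subunit, 21 to the small subunit and 2, Rplp0 and Rplp2, to the stalk of the large subunit. A further 29 ribosomal protein genes, such as Rpl5, Rpl3 and Rps23, were read only by probe sets that name several genes, and they are not members. Rpsa, Fau and Rps3a1, which also encode ribosomal proteins, do not match the name rule.

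RNA of whole blood was measured on Affymetrix Mouse 430 2.0 arrays in C57Bl/10 mice aged 3 months, with 1 mouse per array and 4 mice in each of 3 groups. The REC mice spent 14 days in normobaric chronic hypoxia and then recovered for 14 days at 21% oxygen. The CH mice spent 14 days in the same hypoxia, in which the inspired oxygen was lowered by steps to 8%. The NX mice were kept at 21% oxygen. One label field calls the CH mice normoxic, and the titles and the treatment of the samples were followed instead. The arrays are named here by their group and replicate number.

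A ribosome has a small subunit, which reads the messenger RNA, and a large subunit, which joins the amino acids, and most ribosomal proteins are built into it in equal numbers. Reticulocytes, the young red cells released from the bone marrow, have no nucleus but still hold ribosomes and messenger RNA, both of which are lost as the cell matures. In human, loss of 1 copy of some ribosomal protein genes causes Diamond-Blackfan anaemia, a failure of red cell production.

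The array values are linear signals that share the same trimmed mean on all arrays. They were compared as log2(signal + 16), which understates the change of dim transcripts, and each gene was read by its probe set with the highest mean. A gene was called higher or lower if its adjusted p from limma, taken over all probe sets, was under 0.05 and its change reached 2-fold. The signals of 2 probe sets do not rank their transcripts against each other, since each probe set binds with its own strength. In whole blood, a change in the number of cells of a type and a change in RNA per cell cannot be told apart. Markers of red cells and reticulocytes had a summed signal between 4940 and 15200 on the REC arrays, between 106000 and 167000 on the CH arrays and between 21400 and 32600 on the NX arrays. Of these 7 markers, 6 were called higher in CH against NX, while 6 of 6 markers of T cells, 4 of 5 of B cells and 3 of 4 of NK cells were called lower. In REC against CH, 6 of the 7 red cell markers were called lower, and 6 of 6 T cell, 4 of 5 B cell and 4 of 4 NK cell markers higher. In REC against NX, 4 of the red cell markers were called lower and 2 of the NK cell markers higher. Among the red cell markers Hba-a1, whose probe set had a mean signal of 6.64 in REC, 14.9 in CH and 7.0 in NX, was dim in every group. Their part in the changes of the ribosomal proteins was not tested. The signal of the 3′ probe set of actin over that of its 5′ probe set, which rises where RNA is degraded, lay between 1.54 and 1.73 on the REC arrays, between 1.91 and 2.11 on the CH arrays and between 1.61 and 1.86 on the NX arrays. Its part in the results was likewise not tested.

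Most ribosomal protein genes had higher signals in CH, by 2.02-fold to 4.77-fold among those called. A small set of paralogues and dimmer members was called higher in REC than in CH or NX. In CH against NX, 32 of 47 members were called higher and 3 lower, where 9.08% of all genes were called higher and 19.5% lower. The median log2 change of the members was 1.57, and that of all genes 0.054. In REC against CH, 29 members were called lower (61.7%) and 8 higher (17.0%), against 12.3% and 23.3% of all genes. The share of members called higher was thus below that of all genes. The median log2 change was -1.65 for the members and -0.073 for all genes. In REC against NX, 4 members were called higher, where 2.5% of all genes were. The call of lower was made for 0 members by limma in this comparison, where 1.79% of all genes were called lower. At an unadjusted p under 0.05, 4 members were lower. Without limma's moderation the call was again made for 0 members, and for 258 of all genes. The median log2 change there was -0.059. The 3 comparisons share their arrays, so their counts are not independent of each other.

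**Figure D1:**
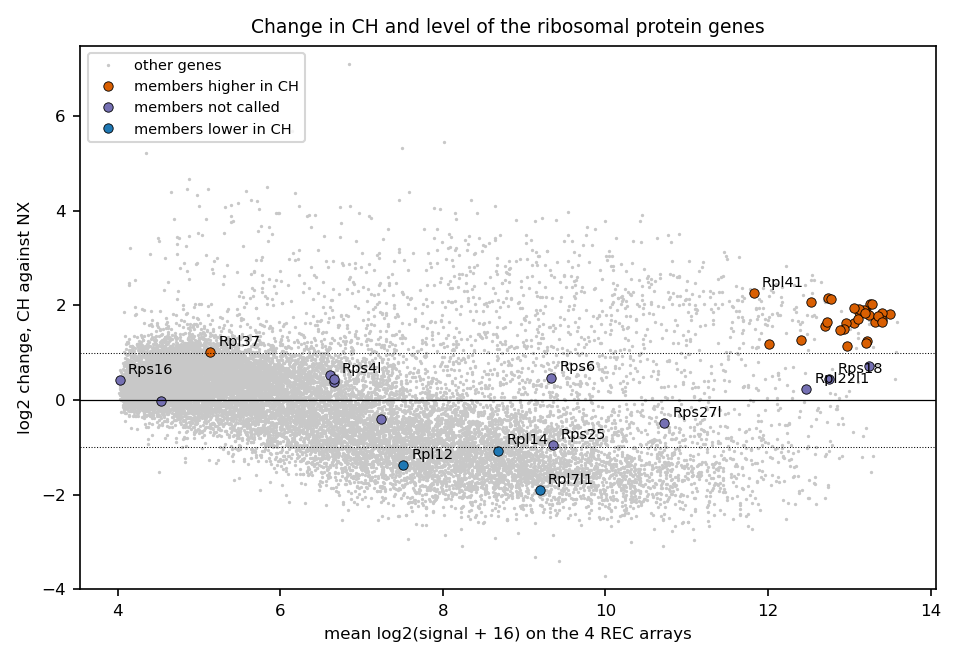
Log2 change in CH against NX (vertical axis) of each gene, against its mean log2(signal + 16) on the 4 REC arrays (horizontal axis). Small grey points are all other genes, large points the 47 members, coloured by their call, and dotted lines mark a 2-fold change. The members called higher lie at the bright end, apart from Rpl37, and the 3 called lower at middle levels.

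The higher signals in CH depended on how the arrays were put on 1 scale. With the deposited scaling 32 members were called higher in CH against NX, and 30 with each array centred on its median. With quantile normalization the count was 0 by limma (4 at an unadjusted p under 0.05), and the median log2 change was -0.044. The arrays were also scaled on the hybridization controls, which are bacterial and phage transcripts added for the hybridization and not part of the blood RNA. The count was then again 0 (2 at an unadjusted p under 0.05) and the median was 0.0065. The 29 members called lower in REC against CH became 1 with quantile normalization, at a median of 0.35, and 0 with the control scaling (0 at an unadjusted p under 0.05), at a median of 0.71. The share of an array's total signal on the 47 probe sets does not change with a linear scaling factor. It was 2.62% ± 0.173 in REC, 4.48% ± 0.389 in CH and 2.66% ± 0.0935 in NX (SD, n = 4 arrays each), so that every CH array, between 4.12% and 4.88%, lay above every REC and NX array. The 100 brightest probe sets of an array, whatever their gene, held 8.5% to 10.3% of its signal in REC. They held 19.9% to 22.1% in CH and 10.6% to 13.8% in NX. The mean log2 level of the hybridization controls, with the deposited scaling, was 14.0 to 14.6 on the CH arrays. It was 11.6 to 12.2 on the REC arrays and 12.3 to 13.1 on the NX arrays. The part of these differences in the share of the members was not tested. The ranks of the members ran differently from their share. The median member stood at percentile 99.62 to 99.72 of the probe sets of a REC array, 99.35 to 99.47 of a CH array and 99.37 to 99.53 of an NX array. Of the 100 brightest probe sets of an array, 24 to 30 belonged to members on the REC arrays, 12 to 20 on the CH arrays and 5 to 19 on the NX arrays, so REC stood apart from CH and NX by this count.

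**Figure D2:**
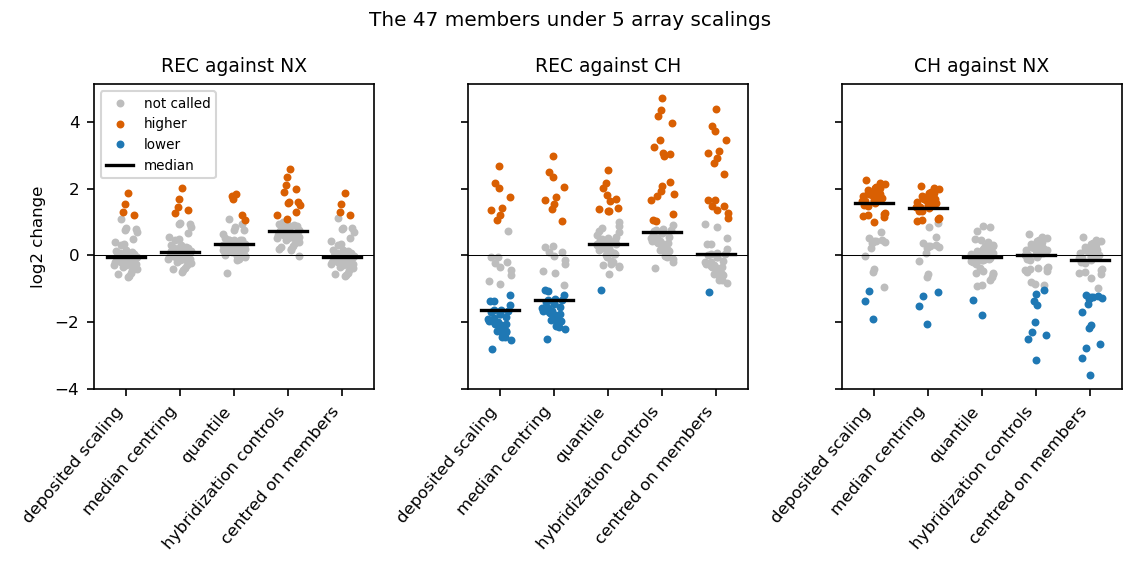
Log2 change (vertical axis) of the 47 members in 3 comparisons, under 5 ways of scaling the arrays (horizontal axis). Each point is a member, orange where called higher, blue where called lower and grey where not called, and the black bar is the median. In CH against NX the orange points are present with the deposited scaling and with median centring, and absent with the other 3.

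Many bright probe sets outside the members also had higher signals in CH. Of the 500 brightest probe sets of the REC arrays, 61 belong to members. Of the other 439, 212 were called higher in CH against NX and 95 lower, with a median log2 change of 0.84. Probe sets that name a ribosomal protein gene together with other genes, and those of Rpsa, Fau and Rps3a1, were not taken out of the 439. Among the members, 31 of the 34 with a mean NX signal of 1000 or more were called higher in CH, and 1 of the 13 below that level. The log2 change in CH against NX went with the level on the REC arrays, which do not enter the change, with Spearman's rho of 0.61 over the 47 members and -0.49 over all 18194 genes. These are correlations across genes of the same arrays and no test is attached to them.

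In the large subunit, 16 of 24 members were called higher in CH against NX and 3 lower, with a median log2 change of 1.26. Rpl41, the smallest ribosomal protein, changed most. Its signals were 4569, 3522, 3447 and 3051 in REC, 20030, 24550, 24360 and 34830 in CH, and 4500, 5323, 5024 and 6643 in NX. The CH arrays lay above all others, and REC and NX overlapped. This was a log2 change of 2.25 in CH against NX (SE 0.24, adjusted p = 1.76e-05) and -2.81 in REC against CH (SE 0.24, adjusted p = 9.18e-07). Rpl7, a protein of the large subunit surface, averaged 6854 ± 627 in REC, 29140 ± 6840 in CH and 6382 ± 758 in NX (SD, n = 4 each), a log2 change of 2.17 in CH against NX. Rpl35, which sits near the exit of the peptide tunnel, averaged 9820 ± 1310 in REC, 48130 ± 11500 in CH and 11580 ± 1180 in NX, a log2 change of 2.03. Rpl38, which in mouse embryos is needed for the translation of Hox messenger RNAs, averaged 10860 ± 1610 in REC, 53560 ± 9640 in CH and 15090 ± 3920 in NX, a log2 change of 1.84. For each of these 4 genes CH_4 was the brightest array.

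Rplp0 and Rplp2 form the stalk that brings elongation factors to the ribosome, and both were called higher in CH. Rplp0 had signals of 8191, 6752, 6911 and 6249 in REC, 29960, 37130, 45150 and 54150 in CH, and 7944, 8836, 8617 and 11910 in NX. CH stood apart from the other groups, and REC and NX overlapped. Its log2 change was 2.14 in CH against NX (SE 0.24, adjusted p = 2.68e-05) and -2.54 in REC against CH. Rplp2 averaged 8945 ± 1440 in REC, 49710 ± 10800 in CH and 12950 ± 1200 in NX, with log2 changes of 1.92 in CH against NX and -2.46 in REC against CH.

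In the small subunit, 14 of 21 members were called higher in CH against NX, with a median log2 change of 1.62. Rps2, which lies at the entry of the messenger RNA channel, averaged 5897 ± 700 in REC, 30230 ± 6470 in CH and 7120 ± 772 in NX, a log2 change of 2.07 in CH against NX (SE 0.22, adjusted p = 1.78e-05). Rps29 and Rps24 were among the 3 members with the highest mean log2 signal, with Rpl38. Rps29 had signals of 13230, 9234, 10350 and 10780 in REC, 41580, 48840, 51720 and 66690 in CH, and 18720, 13640, 14060 and 20350 in NX. It was highest in CH, and every REC array lay below every NX array. It changed by 1.64 in CH against NX and -0.60 in REC against NX, and the change in REC against NX was short of the call (adjusted p = 0.191). Rps24 averaged 9738 ± 1540 in REC, 53420 ± 11800 in CH and 15140 ± 1800 in NX, with log2 changes of 1.80 in CH against NX and -0.64 in REC against NX (adjusted p = 0.151). The signals of Rps18 averaged 6894 ± 752 in REC, 9043 ± 2810 in CH and 6433 ± 429 in NX, and this bright member was called in none of the 3 comparisons (adjusted p = 0.211 for CH against NX).

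Of the 20 ribosomal protein genes listed for Diamond-Blackfan anaemia in human, 12 are members. Of these 12, 11 were called higher in CH against NX, with Rps27 as the exception, and 10 were called lower in REC against CH. In CH against NX, 32 of all 47 members, 31 of the 34 with a mean NX signal of 1000 or more and 9.08% of all genes were called higher. In REC against CH, 29 of the 47 members and 12.3% of all genes were called lower. Rps19, the gene most often affected in that anaemia, had signals of 9427, 7341, 7701 and 6904 in REC, 14390, 16600, 23570 and 28440 in CH, and 5956, 7361, 7395 and 7609 in NX. The CH arrays were all above the others, while REC and NX overlapped. Its log2 change was 1.503 in CH against NX (SE 0.25, adjusted p = 0.00054) and -1.36 in REC against CH (adjusted p = 0.000755). Rps10 changed by 2.04, Rpl11, which also binds the p53 regulator Mdm2, by 1.14, and Rps26, at the exit of the messenger RNA channel, by 1.18 on the log2 scale in CH against NX. The other called members of the list, Rps7, Rps20, Rps24, Rps28, Rps29, Rpl27 and Rpl35, had log2 changes between 1.57 and 2.03. With quantile normalization and with the control scaling, none of these higher calls in CH was made. The call of Rpl11 was also lost with median centring, at a log2 change of 0.98, and without CH replicate 4, at 0.96.

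In all, 3 members were called lower in CH against NX. Rpl7l1, a relative of Rpl7 whose yeast counterpart assembles the large subunit, had signals of 501.4, 708.6, 726.2 and 402.8 in REC, 76.08, 61.63, 135.5 and 46.76 in CH, and 281, 407, 366.1 and 266.3 in NX. CH stood below both other groups on every array, and REC and NX overlapped by 1 REC array. The log2 change was -1.91 in CH against NX (SE 0.30, adjusted p = 0.000353) and 2.69 in REC against CH (SE 0.30, adjusted p = 1.11e-05). Rpl12, a protein at the base of the stalk, had signals of 165.7, 186.1, 216.9 and 112.8 in REC, 59.83, 31.04, 122.3 and 35.77 in CH, and 175, 210, 192.2 and 112.6 in NX. The array CH_3 overlapped with the lowest arrays of REC and NX. Its log2 change was -1.37 in CH against NX (adjusted p = 0.00701) and 1.36 in REC against CH (adjusted p = 0.00619). Rpl14, a large subunit protein, averaged 404.2 ± 96.1 in REC, 83.2 ± 46.7 in CH and 176.7 ± 34.8 in NX. It changed by -1.07 in CH against NX (adjusted p = 0.0269) and by 2.18 in REC against CH (adjusted p = 0.000169). The lower calls of Rpl7l1 and Rpl12 were made under each of the 5 scalings, and that of Rpl14 was lost with quantile normalization, at a log2 change of -0.93.

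The members called higher in REC against NX were Rps4l, Rps27l, Rpl22l1 and Rps6, and each was so called under all 5 scalings. Rps4l, an autosomal mouse relative of the X-linked Rps4x, had signals of 90.77, 65.62, 98.67 and 87.85 in REC, 24.32, 16.94, 25.25 and 19.95 in CH, and 1.387, 22.35, 30.24 and 3.12 in NX. Every REC array was above every other array, and 2 of the NX arrays were near 0. The log2 change was 1.86 in REC against NX (SE 0.31, adjusted p = 0.00385) and 1.43 in REC against CH (adjusted p = 0.00231). Rps27l, a relative of Rps27 that is induced by p53, had signals of 1524, 1861, 1816 and 1534 in REC, 427.1, 455, 446.7 and 289.9 in CH, and 572.4, 594.7, 648.6 and 467.3 in NX. The REC arrays lay far above the rest, and the CH arrays below all NX arrays. Its log2 change was 1.54 in REC against NX (SE 0.23, adjusted p = 0.00219), 2.03 in REC against CH (SE 0.23, adjusted p = 1.04e-05) and -0.49 in CH against NX (adjusted p = 0.124).

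Rpl22l1, the relative of Rpl22, had signals of 5613, 5492, 6352 and 5218 in REC, 2833, 2250, 2684 and 3060 in CH, and 1889, 2234, 2588 and 2563 in NX. REC was above the other groups on all arrays, and CH and NX overlapped. The log2 change was 1.29 in REC against NX (SE 0.21, adjusted p = 0.00388) and 1.07 in REC against CH (SE 0.21, adjusted p = 0.00135), the call in REC against CH being lost without CH replicate 2, at 0.98. Rps6, the substrate of the S6 kinases, had signals of 587.6, 662.5, 669.9 and 594.5 in REC, 227.9, 441.9, 376.4 and 504.2 in CH, and 170.7, 292.9, 340.8 and 280.2 in NX. REC lay highest and CH and NX overlapped. On the log2 scale it changed by 1.204 in REC against NX (SE 0.28, adjusted p = 0.0232), and the call was lost without REC replicate 1, 2, 3 or 4 and without NX replicate 1, 2 or 4, at values between 1.01 and 1.25. A second probe set of Rps6 had mean signals of 5.56 in REC, 41.0 in CH and 20.7 in NX. With the 2 probe sets averaged the log2 change in REC against NX was 0.28 and was not called, and the call was also lost with a pseudocount of 1.

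Rps25, a small subunit protein used in initiation at internal entry sites, and Rps27, a zinc finger protein of the small subunit, completed the 8 members called higher in REC against CH, a call that all 8 kept under the 5 scalings. Rps25 had signals of 508, 710, 775.8 and 588.2 in REC, 132, 133.7, 278.2 and 201.3 in CH, and 295.3, 366.7, 421 and 367.5 in NX. The 3 groups did not overlap on any array, with REC highest and CH lowest. The log2 change was 1.75 in REC against CH (SE 0.27, adjusted p = 0.000153). The change in CH against NX, -0.95, was short of 2-fold (adjusted p = 0.0147). Rps27 averaged 137.8 ± 28.9 in REC, 49.6 ± 11.6 in CH and 72.5 ± 24.1 in NX, a log2 change of 1.22 in REC against CH (adjusted p = 0.00185).

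**Figure D3:**
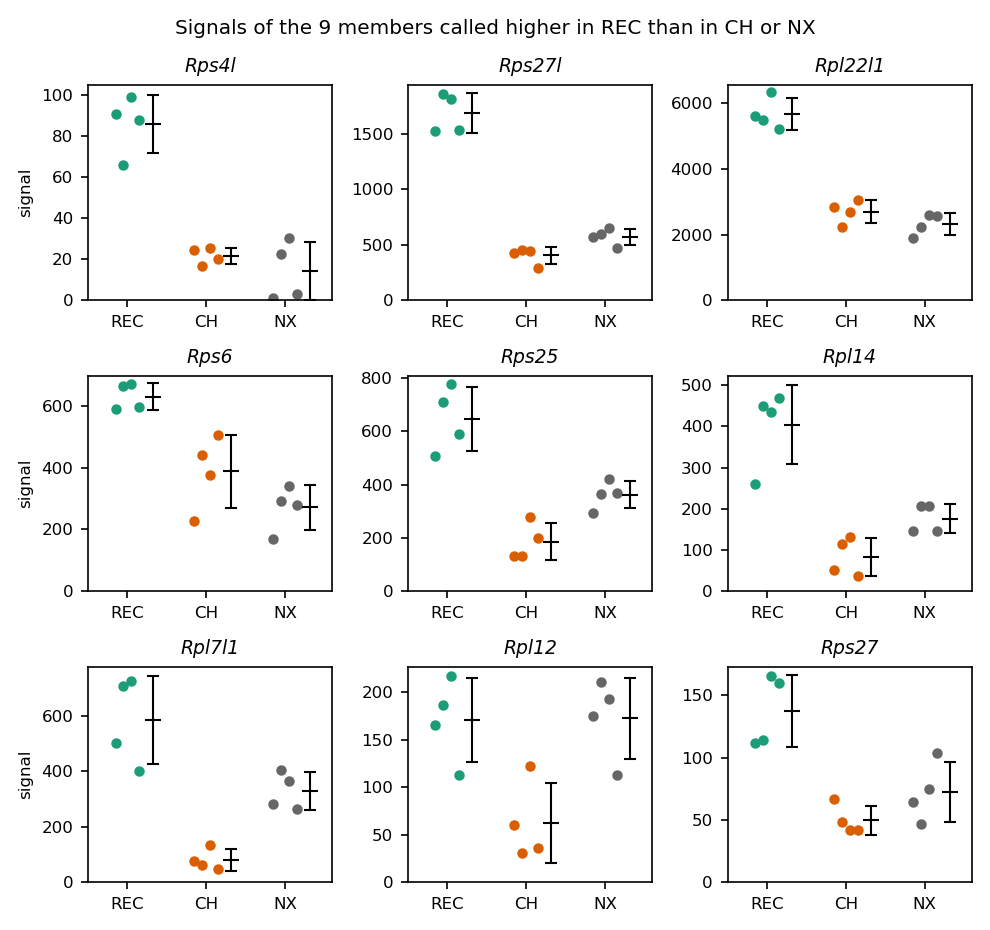
Signal (vertical axis, linear and starting at 0) of the 9 members called higher in REC than in CH or NX, by group. Points are the 4 arrays of REC, CH and NX, and the bar at the right of each group is the mean with its SD. REC holds the highest arrays in each panel except that of Rpl12, where REC and NX overlap, and of Rpl7l1, where 1 REC array lies within the range of NX.

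Of the paralogues, the 6 members with an l suffix, 5 were set against the gene they are named after, and Rpl3l has no such partner among the members. Of the 6, 1 was called lower in CH against NX (16.7%), a share near the 19.5% of all genes. In REC against CH, 4 were called higher (66.7%), where 23.3% of all genes were. The log2 difference between paralogue and partner was taken within each array, and only its change between groups has a meaning, not its level. Because 16 was added to each signal, the difference of a dim pair still depends on the scaling of the array. The difference was therefore also taken with nothing added, by a choice made after seeing the data, and there no linear scaling factor enters. A scaling that differs with brightness, such as quantile normalization, would still change it. With that scaling, the log2 change of Rpl7 in REC against CH was 0.0665 in place of -2.06, and that of Rps4x 0.49 in place of -1.65. The log2 difference of Rpl22l1 and Rpl22 was higher in REC than in CH by 1.28 and higher in REC than in NX by 0.79. Its highest value on an NX array was -1.46 and its lowest on a REC array -1.02, so these arrays did not overlap, and with nothing added the changes were 1.28 and 0.79. That of Rps4l and Rps4x was higher in REC than in CH by 3.08 and than in NX by 2.04, and by 3.64 and 3.70 with nothing added, without overlap in either form. For Rps27l and Rps27 it was higher in REC by 0.81 than in CH and by 0.72 than in NX, but REC and NX overlapped, and with nothing added, at 0.60 each, REC overlapped with both. For Rpl7l1 and Rpl7 the difference in REC exceeded that in CH by 4.75, the highest CH array at -7.49 lying below the lowest NX array at -4.72, and by 5.01 with nothing added. Rpl39l, known from the testis, and its partner Rpl39 had mean signals between 70.2 and 107.7 in all groups, and neither was called in any comparison. Rpl3l, known from skeletal muscle and heart, had mean signals of 7.59 in REC, 8.49 in CH and 9.62 in NX, which are below the 16 added before the logarithm. No direction was read from it, nor from Rps16, whose probe set gave 0.279 in REC, 8.97 in CH and 0.681 in NX, a CH mean that rests on a single array at 32.5. Rpl37 was the other dim member, at 19.9 in REC, 48.6 in CH and 15.8 in NX, and its higher call in CH (log2 change 1.01, adjusted p = 0.0048) was lost with median centring, at 0.85, with each of the other scalings, and without CH replicate 2 or 4 or NX replicate 1 or 3, at 0.94 to 0.98.

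Different probe sets of the same gene did not always move together. Of the 102 member probe sets, 60 were called higher in CH against NX and 10 lower, against 8.04% and 13.9% of all probe sets. In REC against CH, 57 were called lower and 20 higher (12.6% and 15.2% of all), and in REC against NX 9 were called higher (1.62%) and 0 lower by limma (2.74%), with 5 lower at an unadjusted p under 0.05. There were 5 genes, Rpl41, Rps24, Rpl35, Rps10 and Rps9, with at least 1 probe set called higher and another called lower in CH against NX. For Rps24, 4 probe sets with mean NX signals between 8647 and 15140 changed by 1.80 to 1.85 on the log2 scale, while another averaged 127.0 in REC, 43.1 in CH and 169.8 in NX and changed by -1.66 (adjusted p = 0.000492). For Rpl41, the probe set with means of 422.5 in REC, 129.5 in CH and 272.5 in NX changed by -1.03, against 2.25 and 2.84 for the 2 brightest. For Rpl35 the dimmest, at 144.9 in REC, 22.7 in CH and 59.8 in NX, changed by -1.07. In each of the 5 genes the bright probe sets were higher in CH and the one called lower had a mean NX signal under 300. By the suffix that the manufacturer gives, x_at probe sets, which may bind other transcripts of similar sequence, were called higher in CH in 32 of 40 cases, a_at probe sets in 22 of 27, and plain at probe sets in 5 of 32, with 9 of the plain ones called lower. The share called by suffix was not taken over all probe sets of the array, so the contrast is not shown to be particular to the members. The suffix and the brightness of a probe set went together and their parts were not tested.

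**Figure D4:**
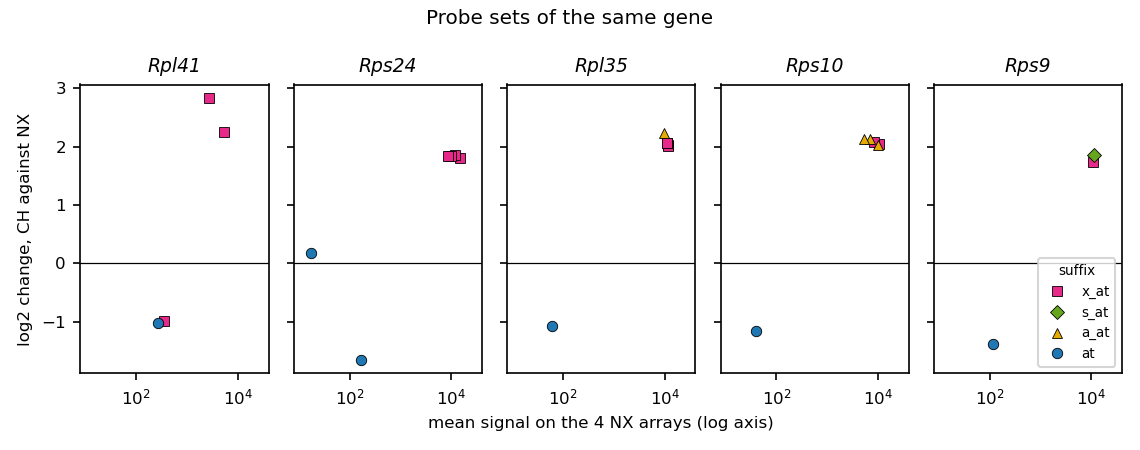
Log2 change in CH against NX (vertical axis) of each probe set of 5 genes, against its mean signal on the 4 NX arrays (horizontal axis, log scale). The symbol gives the suffix of the probe set. In each panel the bright probe sets lie between 1.74 and 2.84 and the lower call lies between -1.03 and -1.66.

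The promoters are shown for some members called higher in CH and some called higher in REC. These groups were made by the calls, the higher call in CH depends on the scaling as given above, and the genes shown were picked with their matches known. The stretches run from 60 bases before to 20 bases after a RefSeq transcription start, build GRCm38.p6, and capitals mark a match, on either strand, to the pyrimidine stretch CTTTCC or the ETS site CCGGAAG. Rpl22 and Rps27l have 2 starts each in the table, and both are shown. Rpl38, Rps10 and Rpl41 were highest in CH. Rpl22l1 and Rps27l were highest in REC, and Rpl22 is the partner of Rpl22l1.
Rpl38, chr11:114668520-114668599, plus strand: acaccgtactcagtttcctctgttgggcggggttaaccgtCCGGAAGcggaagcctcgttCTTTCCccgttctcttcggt
Rps10, chr17:27635225-27635304, minus strand: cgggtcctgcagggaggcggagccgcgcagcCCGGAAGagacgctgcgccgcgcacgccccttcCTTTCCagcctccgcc
Rpl41, chr10:128549149-128549228, minus strand: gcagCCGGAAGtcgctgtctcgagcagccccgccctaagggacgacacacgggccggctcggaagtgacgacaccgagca
Rpl22l1, chr3:28805448-28805527, plus strand: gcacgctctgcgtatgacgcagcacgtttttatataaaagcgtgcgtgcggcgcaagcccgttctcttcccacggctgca
Rpl22, chr4:152324376-152324455, plus strand: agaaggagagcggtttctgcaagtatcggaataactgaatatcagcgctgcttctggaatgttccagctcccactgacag
Rpl22, chr4:152325666-152325745, plus strand: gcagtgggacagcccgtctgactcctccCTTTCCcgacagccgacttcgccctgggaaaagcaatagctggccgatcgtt
Rps27l, chr9:66946026-66946105, plus strand: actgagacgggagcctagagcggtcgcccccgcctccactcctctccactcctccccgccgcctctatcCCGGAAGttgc
Rps27l, chr9:66946353-66946432, plus strand: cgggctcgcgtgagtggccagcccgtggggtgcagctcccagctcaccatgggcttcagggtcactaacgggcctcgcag

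A promoter of 300 bases, 250 before and 50 after the start, was found for 41 of the 47 members, which have 49 starts. CTTTCC was in 44.9% of these 49 and in 26.6% of all 32851 promoters of the table. CCGGAAG was in 38.8% and in 8.86% of all. The YY1 site AAGATGGC was in 8.2% and in 2.75% of all. By gene, CTTTCC was found in 16 of the 27 members called higher in CH that have a promoter and in 5 of the 14 others. CCGGAAG was found in 13 of those 27 and in 6 of the 14 others, and AAGATGGC in 1 of those 27 and in 3 of the 14 others. Of the 7 members called higher in REC against CH that have a promoter, 3 held CTTTCC, 2 CCGGAAG and 2 AAGATGGC. Some members called higher in CH, such as Rps15 and Rps28, held no match in the 300 bases. Such a match describes the letters of the window and not the binding of a factor.

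Other genes of translation were taken from lists. They were counted with the deposited scaling only, on which the higher calls of the members in CH depended. Their counts stand beside 9.08% of all genes called higher and 19.5% lower in CH against NX. In REC against CH, 23.3% of all genes were called higher and 12.3% lower. All 5 elongation factors measured, which feed the growing chain, were called higher in CH against NX and lower in REC against CH, with median log2 changes of 1.69 and -1.98. Eef2, which moves the ribosome along the messenger RNA, averaged 4377 in REC, 20460 in CH and 3625 in NX. Of 23 initiation factors, 8 were called higher (34.8%) and 5 lower (21.7%) in CH against NX. Pabpc1, which binds the poly(A) tail, averaged 4729 in REC, 46230 in CH and 12790 in NX, and was also called lower in REC against NX, with a log2 change of -1.52. The calls of genes that build ribosomes were mostly in the other direction. Of 37 ribosome assembly factors, 15 were called lower in CH against NX and 1, Sbds, higher, and 27 were called higher in REC against CH. Fbl, which methylates ribosomal RNA, averaged 1394 in REC, 242.0 in CH and 811.6 in NX, and Ddx21, a helicase of ribosomal RNA synthesis, 1524 in REC, 422.0 in CH and 1518 in NX. Of 11 genes of RNA polymerase I and its factors, which make the ribosomal RNA, 8 were called lower in CH against NX, with a median log2 change of -1.21. Ubtf, which opens the ribosomal RNA genes, averaged 912.0 in REC, 141.9 in CH and 540.0 in NX.

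Genes for proteins of the mitochondrial ribosome were more often called lower than higher in CH against NX. Of 76 such genes, 28 were called lower and 6 higher, with a median log2 change of -0.70. In REC against NX, 31 were called higher (40.8%), with a median of 1.09. In that comparison 4 of the 47 cytosolic members and 2.5% of all genes were called higher. Of the same 76, 60 were called higher in REC against CH, with a median of 1.81. Of 15 measured genes of mTOR and of the control of messenger RNAs with a terminal oligopyrimidine tract, the class that ribosomal proteins belong to, 3 were called higher (20.0%) and 5 lower (33.3%) in CH against NX. Cnbp, which binds such messenger RNAs, averaged 3967 in REC, 14660 in CH and 4612 in NX, and Mtor itself 170.6 in REC, 87.0 in CH and 187.3 in NX. Of 11 genes for rescue of stalled ribosomes, 3 were called lower in CH against NX (27.3%), a share near the 19.5% of all genes. One of them was Abce1, which splits the subunits, at 1341 in REC, 321.6 in CH and 1326 in NX. The median of all genes in CH against NX was 0.054 with the deposited scaling, 0.02 with quantile normalization and -0.84 with the control scaling.

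**Figure D5:**
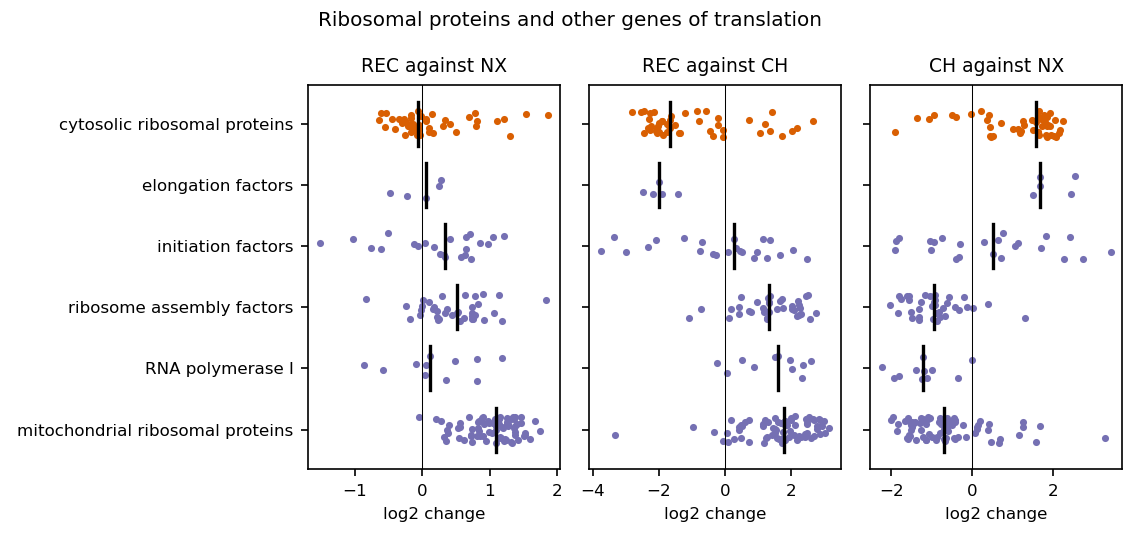
Log2 change (horizontal axis) of each gene of 6 lists (vertical axis) in REC against NX, REC against CH and CH against NX, with the deposited scaling. Each point is a gene and the black bar the median of the list. Cytosolic ribosomal proteins and elongation factors lie to the right in CH against NX, and ribosome assembly factors, RNA polymerase I and mitochondrial ribosomal proteins to the left.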

How the data were processed

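Blood RNA of 12 mice was read on 12 arrays, 4 each in REC, CH and NX. Per the labels, RNA was amplified with an isothermal single-primer method, while the paper's Methods describe another kit. The deposited values are intensities, given as a linear signal for each probe set on each array. After scanning, the authors used GC-RMA for their own analysis, a log2 scale that these values are not on. Per the paper's Methods, probe set intensities were kept with Affymetrix's GeneChip Operating System and scaling factors were checked. The algorithm and its settings are not stated there, and the equal trimmed means are what global scaling gives. No detection call or scan date was used. The number of arrays limits the precision.

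Probe sets were named from the platform annotation. Of 45101, 34958 name 1 gene, 932 several and 9211 none, and 34754 were matched by gene number. log2(signal + 16) was fitted with limma 3.58.1 in R 4.3.3, with a mean per group over all 12 arrays (lmFit, eBayes, 9 residual degrees of freedom), and p-values were adjusted by Benjamini-Hochberg over all probe sets. This was tested on simulated data first. The members, lists, tests and alternatives were chosen with earlier results of these data known. The named genes were, for each comparison, up to 8 called members with the largest rise and fall without overlap between the groups, each paralogue with its partner, the 3 brightest and the 3 dimmest members, the called members of the anaemia list, and the 3 genes whose probe sets differed most. Rpl12, Rps9, Rps18 and the genes of other lists were named after their values were seen. Promoters came from RefSeq (GRCm38.p6). Protein sequences of the paralogues were not analysed here. The plots were made with matplotlib 3.10.9 (Python 3.11.15).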

Additional observations from a re-analysis of the deposited data

Results flagged for a closer look

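A value far from the other 3 was looked for in 108 groups of 4 arrays, which cover a part of the 47 members, and 10 held one. Chance gives one in about 1 in 20 for a single group, but the members share their arrays, so the groups are not independent. REC_1 was such a value for Rpl22 (signal 11360), Rpl27 (7867), Rpl35 (11780) and Rpl4 (10890), all above the other REC arrays, and for Rpl14 (261.6), below them. NX_1 was low for Rpl11 (7399), Rps10 (9038) and Rps19 (5956). CH_2 stood out for Rps16 (32.5), whose other signals lie near 1, and CH_4 was low for Rps27l (289.9). Without REC replicate 1, 29 members were still called lower in REC against CH.

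Outside the members, 110 probe sets name a ribosomal protein gene together with other genes. Of these, 81 were called higher in CH against NX and 3 lower, with a median log2 change of 1.62. Of all probe sets, 8.04% were called higher and 13.9% lower. In REC against CH 74 were called lower and 5 higher, against 12.6% and 15.2% of all probe sets. These probe sets share the scaling of the members, and their counts are those with the deposited scaling.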

How the results depend on the processing

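The alternatives were other scalings, a pseudocount of 1, leaving out the dimmer probe sets, other thresholds and priors, fitting only the 8 arrays compared, array weights, a replicate block, other choices of probe set and leaving out each array. Centring each array on the members was chosen after seeing the data. Counts of members called higher and lower in CH against NX, 32 and 3, were 0 and 2 with quantile normalization, 0 and 9 with the control scaling, 0 and 14 with member centring, and 23 and 6 without _x_at and _s_at probe sets. In REC against NX, 4 higher became 12 with the control scaling. In REC against CH, 8 higher and 29 lower became 10 and 1 with quantile normalization, 18 and 0 with the control scaling, and 16 and 1 with member centring. The members' median log2 change in CH against NX, 1.57, was -0.044 with quantile normalization, 0.0065 with the control scaling, 1.01 when a gene's probe sets were averaged and 1.16 without _x_at and _s_at probe sets. In REC against NX, -0.059 became 0.34 with quantile normalization and 0.72 with the control scaling. In REC against CH, -1.65 became 0.35 with quantile normalization, -1.34 with median centring, 0.71 with the control scaling, -1.137 when a gene's probe sets were averaged and -0.76 without _x_at and _s_at probe sets. The cause was not tested.

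Of the 32 members called higher in CH against NX, 14 changed sign with quantile normalization, 9 with the control scaling and 15 with member centring, and of the 29 called lower in REC against CH 24, 25 and 8 did. None did with median centring, and none of the members called in the other directions did under these 4 scalings. Rps15 turned too, reaching -0.13 in CH against NX and 0.72 in REC against CH among the deposited, median, quantile and control scalings. For the other members named in the text, the log2 changes that turned were these. In REC against CH with quantile normalization they were 0.0665 for Rpl7, 0.091 for Rps29, 0.039 for Rpl38, 0.047 for Rpl35, 0.0007 for Rpl4, 0.13 for Rps9, 0.21 for Rps10, 0.33 for Rps14, 0.33 for Rps7, 0.35 for Rps28, 0.41 for Rpl27, 0.47 for Rps20, 0.49 for Rps4x, 0.73 for Rps19 and 0.89 for Rpl11. With the control scaling they were 0.36 for Rpl7, 0.086 for Rps2, 0.18 for Rps29, 0.13 for Rpl38, 0.16 for Rpl35, 0.16 for Rpl4, 0.28 for Rps9, 0.33 for Rps10, 0.53 for Rps14, 0.68 for Rps7, 0.45 for Rps28, 0.79 for Rpl27, 0.56 for Rps20, 0.77 for Rps4x, 1.07 for Rps19 and 1.23 for Rpl11, and with member centring 0.076 for Rpl27, 0.055 for Rps4x, 0.35 for Rps19 and 0.51 for Rpl11. In CH against NX with quantile normalization they were -0.11 for Rps29, -0.13 for Rpl27, -0.076 for Rps7, -0.11 for Rps20, -0.044 for Rps28, -0.26 for Rps4x, -0.20 for Rps19 and -0.55 for Rpl11. With the control scaling they were -0.11 for Rps19, -0.47 for Rpl11, -0.43 for Rps26, -0.040 for Rpl27, -0.13 for Rps4x and -0.015 for Rpl37, and with member centring -0.051 for Rps29, -0.19 for Rps19, -0.56 for Rpl11, -0.52 for Rps26, -0.12 for Rpl27, -0.036 for Rps7, -0.0027 for Rps20, -0.21 for Rps4x and -0.68 for Rpl37. Without _x_at and _s_at probe sets, Rpl41 changed by -1.03 in CH against NX and 1.64 in REC against CH, Rps24 by -1.66 and 1.33, Rps20 by -0.63 and 0.496, and Rps9 by -1.39 and 0.84.

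With 1 array left out, 30 to 32 members were higher and 2 to 4 lower in CH against NX, 3 to 5 were higher in REC against NX, and 7 to 8 were higher and 29 lower in REC against CH. The medians lay between 1.42 and 1.69, between -0.14 and -0.03, and between -1.74 and -1.53. The lower call of Rpl14 in CH against NX was lost without CH replicate 1 (-0.93), without CH replicate 4 (-0.81), without NX replicate 2 (-0.996) and without NX replicate 3 (-0.997). Same-numbered arrays deviated together with correlations between -0.20 and 0.44, so the numbers were not taken as pairs. The replicate block gave 5 members higher in REC against NX in place of 4, and 32 higher and 3 lower in CH against NX and 8 higher and 29 lower in REC against CH as without it. Members near or below the added 16, such as Rps16 and Rpl3l, allow no direction.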
